A study of Mus musculus with 24 samples.

Results

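Among 4134 stable mRNAs of the mouse oocyte and early embryo, 35 were depleted from the m6A immunoprecipitate (IP) at each of the 3 stages examined. The starting set was 21961 protein-coding genes of the nuclear genome, out of 55471 annotated genes. A level is given here as CPM, the estimated count of a gene divided by the column sum of its library and multiplied by 1e+06, as the mean of the 3 libraries of a group. Of these genes, 6750 had an input level of at least 5 CPM at every stage, and 4134 of them also differed by less than 4-fold between their highest and lowest stage. These 4134 are called stable mRNAs, and the 35 are those with an IP/input ratio of at most 1/3 at MII, L1C and L2C. The set was thus chosen by its input levels and IP/input ratios, which are described with no test.

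SLIM-seq is a low-input form of m6A RNA immunoprecipitation, performed on MII oocytes, embryos late in the 1-cell stage (L1C) and embryos late in the 2-cell stage (L2C), with 3 IP and 3 input libraries per stage. Oocytes came from wild-type B6D2F1 females, and embryos from matings of B6D2F1 females with B6D2F1 males. The females were superovulated with hormones. MII oocytes were freed of cumulus cells, and embryos were grown in KSOM medium from zygotes of mated females. A second experiment compared L2C embryos after *Ythdc1* knockdown (KD), made by injecting zygotes with Cas13d mRNA and crRNAs against *Ythdc1*, with Ctrl embryos given Cas13d mRNA alone, in 3 libraries each. KD used 3 crRNAs mixed together, and Ctrl embryos received no crRNA. The labels number the replicates without naming separate collections, so the spread between libraries may be partly technical.

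N6-methyladenosine is written on mRNA by a methyltransferase complex that favours the DRACH motif, of which GGAC is the core most often used, and it is most dense in long internal exons and near stop codons. Reader proteins bind it, among them Ythdc1 in the nucleus and the Ythdf proteins in the cytoplasm. The mature oocyte makes almost no RNA, so an mRNA that persists into the 2-cell embryo is either stored from the oocyte or made anew once the embryonic genome is switched on.

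GGAC was common in the coding sequences of the 35 mRNAs. The letters GGAC, read on the transcript strand alone, stood in 27.1% of 1496 coding windows of 60 bases from the 35 mRNAs and in 23.8% of 140006 such windows from the stable mRNAs. Below are the 60 coding bases around the last GGAC before the stop codon that lies well inside a coding exon, with every GGAC in capitals. The first 4 are the mRNAs with the lowest ratios, *Carmil1*, *Ercc2*, *Tyk2* and *Sh3bp2*, and the last 2 are the stable mRNAs with the highest mean ratios, *Camk1d* and *Cdk8*, shown for contrast. All are GRCm38, 5′ to 3′ on the strand of the gene.
Carmil1, chr13:24022526-24022585, minus strand, coding exon 37 of 38: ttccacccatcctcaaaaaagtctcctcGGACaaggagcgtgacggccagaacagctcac
Ercc2, chr7:19390406-19390465, plus strand, coding exon 15 of 23: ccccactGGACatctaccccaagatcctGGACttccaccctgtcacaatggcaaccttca
Tyk2, chr9:21107941-21108000, minus strand, coding exon 20 of 23: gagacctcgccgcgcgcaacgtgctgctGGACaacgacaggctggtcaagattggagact
Sh3bp2, chr5:34559321-34559380, plus strand, coding exon 8 of 13: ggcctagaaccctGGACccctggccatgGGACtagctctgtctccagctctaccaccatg
Camk1d, chr2:5301520-5301579, minus strand, coding exon 10 of 11: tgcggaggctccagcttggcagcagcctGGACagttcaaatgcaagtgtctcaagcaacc
Cdk8, chr5:146301581-146301640, plus strand, coding exon 13 of 13: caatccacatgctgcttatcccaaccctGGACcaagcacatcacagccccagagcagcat
Each window was chosen to hold a GGAC, and a match of letters is not a methylated site.

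Total estimated counts ran from 11107421 to 39739950 per SLIM-seq library, and total exon counts from 8696476 to 14500548 in the 5 KD and Ctrl libraries that cover the whole annotation. All 10 oocyte markers exceeded 1 CPM in every group, and their summed level fell from between 11048 and 12134 CPM in MII inputs to between 938 and 989 CPM in L2C inputs. The 6 markers of the 2-cell stage summed to at most 33.4 CPM in MII inputs and between 262 and 383 CPM in L2C inputs. Of 10 cumulus and granulosa markers, 2 to 5 exceeded 1 CPM in a SLIM-seq group, and their sum lay between 3.74 and 46.1 CPM. The 5 blood genes summed to at most 19.2 CPM in a SLIM-seq library.

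In stage order (MII, L1C, L2C), the median IP/input ratio of the 35 mRNAs was 0.185, 0.259 and 0.248, against 1.03, 1.11 and 1.11 over the stable mRNAs. A ratio of at most 1/3 was found for 5.2%, 1.84% and 2.85% of the stable mRNAs in stage order, and for 0.847% at all 3 stages. Every IP library lay below every input library at each stage for all 35, which the rule nearly fixes, as it did at all stages for 16.1% of the stable mRNAs. The lowest of the 3 ratios was at MII for 23 mRNAs, at L2C for 10 and at L1C for 2. Just inside the limit stood *Ints3* at 0.316, *Nup62* at 0.314 and *Wdr13* at 0.313 by their highest ratio, and just outside it *Coro7* at 0.340, *Ranbp3* at 0.341 and *Pfkl* at 0.343. A further 58 stable mRNAs met the limit at 2 stages and 188 at 1 stage.

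**Figure D1:**
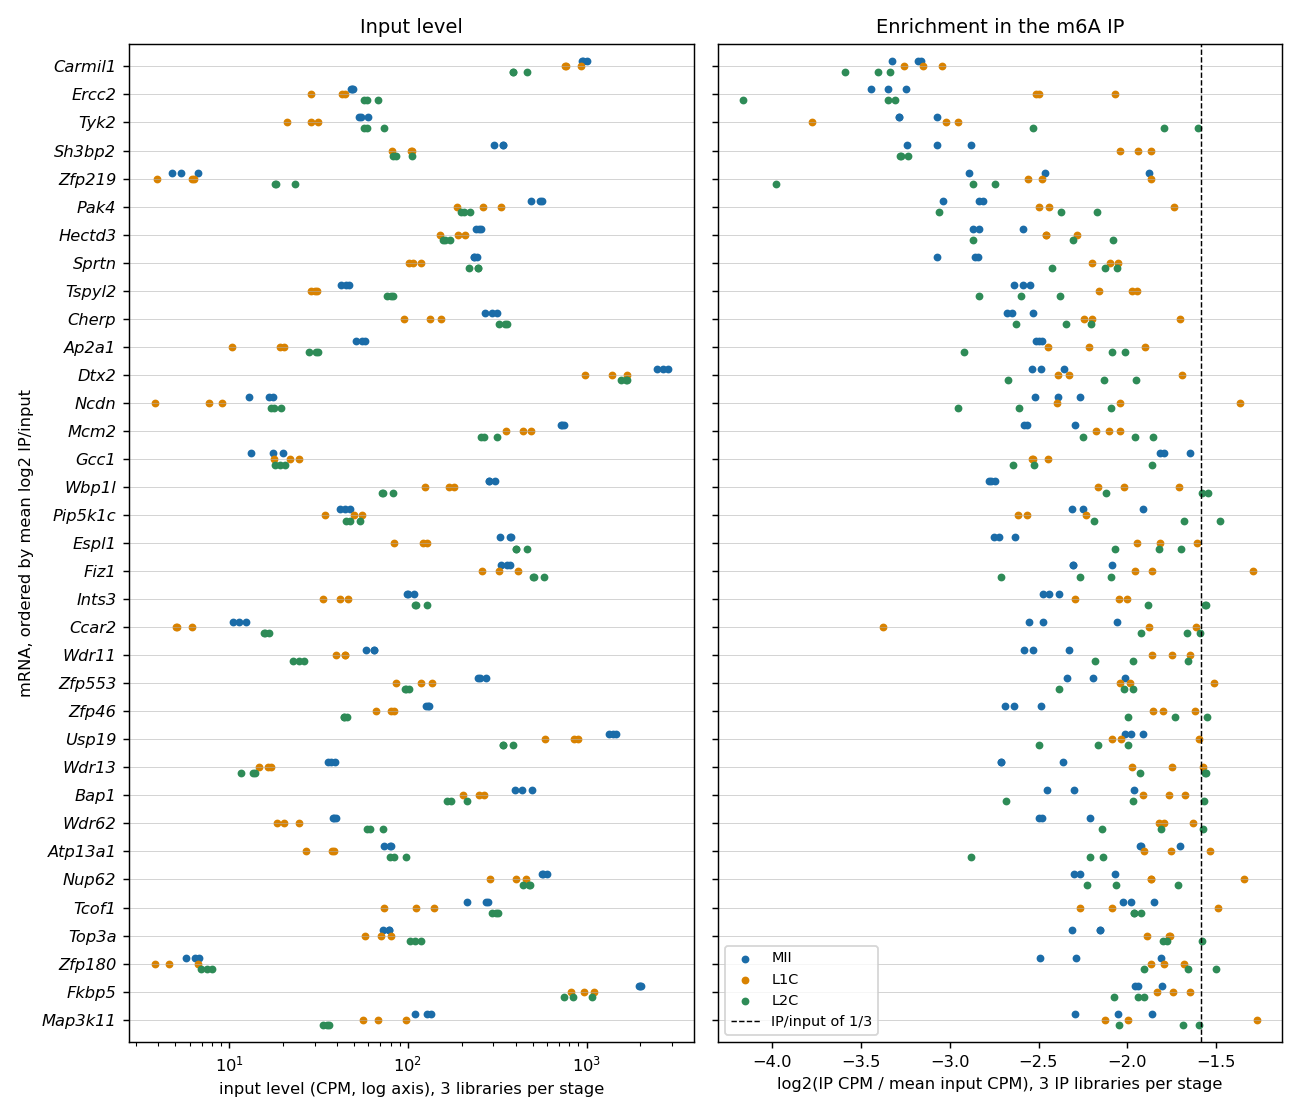
Input level in CPM (left, log axis) and log2 IP/input (right) of the 35 mRNAs, 1 point per library, with the 3 stages in colour and the IP/input limit of 1/3 as a dashed line. Each IP library is divided by the mean input of its stage. The mRNAs are ordered from *Carmil1*, with the lowest mean ratio of 0.104, to *Map3k11*, with the highest of 0.276, and single libraries of some mRNAs lie right of the line because the limit was set on means.

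The 8 mRNAs of signalling and the cytoskeleton included 4 of the 6 lowest ratios. *Carmil1* encodes a regulator of actin filament capping and spans chr13:24012344-24280795. It stood at 947, 955 and 1000.3 CPM in the MII inputs and at 108, 107 and 96.7 CPM in the MII IPs. At L1C its inputs held 755, 765 and 928 CPM and its IPs 99.2, 92.0 and 85.5 CPM. At L2C its inputs held 389, 463 and 387 CPM and its IPs 34.4, 41.0 and 39.1 CPM. Every IP library was far below every input library, with ratios of 0.107, 0.113 and 0.0924, the lowest mean ratio of the set. *Tyk2*, a Janus kinase of cytokine signalling, had similar ratios of 0.108 at MII and 0.109 at L1C. At L2C its IP libraries held 20.7, 10.9 and 18.2 CPM against inputs of 56.6, 73.6 and 58.8 CPM, a ratio of 0.263. *Sh3bp2*, which encodes an adaptor of immune receptor signalling, went the other way at L1C, with ratios of 0.120, 0.259 and 0.104 in stage order. Its L2C IP libraries agreed closely at 9.44, 9.72 and 9.46 CPM, below inputs of 85.9, 106 and 82.6 CPM. *Pak4*, a kinase downstream of Cdc42, had ratios of 0.135, 0.220 and 0.178. *Fkbp5*, an Hsp90 co-chaperone, was abundant, with 1993, 2017 and 1973 CPM in the MII inputs and 519, 569.9 and 514 CPM in the MII IPs. *Map3k11*, a kinase upstream of Jun kinase, had the highest mean ratio of the set at 0.276. *Pip5k1c*, which makes phosphatidylinositol bisphosphate, and *Ncdn*, known from neurons, had mean ratios of 0.230 and 0.210.

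DNA repair, replication and chromosome segregation were represented by 6 mRNAs. *Ercc2* encodes the XPD helicase of transcription factor TFIIH, which opens DNA in nucleotide excision repair. Its MII inputs held 48.6, 49.2 and 47.9 CPM and its MII IPs 4.78, 5.11 and 4.47 CPM. At L2C the inputs held 56.8, 68.3 and 58.9 CPM and the IPs 6.21, 3.43 and 6.04 CPM. Its ratios of 0.0986 at MII and 0.0852 at L2C were the lowest of the set at these stages, and its L1C ratio was 0.197. *Sprtn*, a protease that removes proteins crosslinked to DNA, had ratios of 0.132, 0.231 and 0.219. *Mcm2*, a subunit of the replicative helicase, held 721, 742 and 724 CPM in the MII inputs and 123, 148 and 122 CPM in the MII IPs. *Espl1* encodes separase, the protease that opens cohesin at anaphase, and held 328, 378 and 371 CPM in MII inputs against 53.4, 58.0 and 54.4 CPM in MII IPs. The ratio of *Espl1* was 0.154 at MII and 0.291 at L1C. *Wdr62*, a spindle pole protein, and the topoisomerase *Top3a* had mean ratios of 0.252 and 0.266.

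The 4 mRNAs of the ubiquitin system included the most abundant of the set. *Dtx2*, a ubiquitin ligase of the Deltex family, held 2469.9, 2857 and 2683 CPM in the MII inputs and 461, 520.4 and 477 CPM in the MII IPs. Its L1C inputs spread from 975 to 1675 CPM and its L1C IPs from 257 to 415 CPM, still without overlap. *Usp19*, a deubiquitinase, held 1332, 1449.9 and 1399 CPM in the MII inputs and 345, 369.7 and 354 CPM in the MII IPs. *Hectd3*, a ubiquitin ligase of the HECT class, had ratios of 0.148, 0.190 and 0.192. *Bap1*, the deubiquitinase of histone H2A, had ratios of 0.214, 0.291 and 0.249.

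Another 11 mRNAs encode nuclear and transcription proteins, among them 5 with zinc fingers. *Zfp219* was one of the least abundant of the 35, with MII inputs of 4.77, 6.66 and 5.39 CPM and MII IPs of 1.02, 0.757 and 1.53 CPM. Its L2C inputs of 18.0, 23.2 and 18.3 CPM stood against L2C IPs of 2.71, 1.26 and 2.97 CPM, a ratio of 0.117. *Zfp553*, *Zfp46* and *Zfp180* had mean ratios of 0.243, 0.244 and 0.272. *Fiz1*, which binds a receptor tyrosine kinase, held 502, 510.0 and 581 CPM in the L2C inputs and 124, 81.1 and 110.5 CPM in the L2C IPs. *Nup62*, a protein of the nuclear pore channel, held 439, 477 and 483 CPM in the L2C inputs and 142, 99.5 and 111 CPM in the L2C IPs. *Tspyl2*, a relative of nucleosome assembly proteins, had ratios of 0.166, 0.246 and 0.166. *Cherp*, an RNA-binding protein linked to splicing, had ratios of 0.163, 0.245 and 0.192. *Ints3*, a subunit of the Integrator complex that cleaves nascent RNA, had ratios of 0.185, 0.232 and 0.316. *Ccar2*, an inhibitor of the deacetylase Sirt1, and *Tcof1*, which is needed for transcription of ribosomal RNA genes, had mean ratios of 0.240 and 0.261. For *Zfp219*, *Zfp180* and *Ncdn* some input libraries held fewer than 5 CPM, since the minimum was set on means.

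The 5 mRNAs of membranes and trafficking were *Ap2a1*, *Gcc1*, *Wbp1l*, *Wdr11* and *Atp13a1*. *Ap2a1*, a subunit of the clathrin adaptor at the plasma membrane, had ratios of 0.177, 0.222 and 0.205. *Gcc1*, a golgin of the trans-Golgi, was lowest at L1C, with inputs of 17.7, 24.6 and 21.8 CPM and IPs of 3.70, 3.68 and 3.92 CPM. *Wbp1l*, a membrane protein that binds WW domains, had ratios of 0.147, 0.258 and 0.302. *Wdr11*, which acts in vesicle tethering, and *Atp13a1*, a transport ATPase of the endoplasmic reticulum, had mean ratios of 0.242 and 0.253. *Wdr13*, a WD repeat protein, was left unplaced and had ratios of 0.167, 0.296 and 0.313. The lowest estimated count of any of the 35 in an IP library was 16 among MII, 14.0 among L1C and 14 among L2C libraries.

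Input levels of the 35 mRNAs had medians of 129, 76.6 and 91.5 CPM in stage order. Over the stable mRNAs the medians were lower, at 42.6, 37.6 and 37.3 CPM. The input level is the denominator of the ratio that chose the set, so the rule favours a high input. It did not use the L2C Ctrl embryos. Per kb of exon their median level was 2.86 CPM for the 35 and 5.91 CPM for the stable mRNAs. Summed, the 35 held 12884 CPM in MII inputs and 2539 CPM in MII IPs, then 7127 and 1751 CPM at L1C, and 7549.9 and 1678 CPM at L2C. These levels are shares of a library per gene span and not per length, and fewer copies of an mRNA cannot be told apart from more of other RNAs. Within the 4-fold limit the input levels still moved. For 29 of the 35 the L1C inputs lay below all MII inputs, for none did they lie above, and 6 overlapped, where 45.1% of the stable mRNAs were lower and 22.8% higher. The median log2 L1C/MII of the inputs was -0.88 for the 35 and -0.21 for the stable mRNAs. From L1C to L2C, 17 were higher and 8 lower without overlap, where 35.4% and 40.9% of the stable mRNAs were, and the median log2 change was 0.29 against -0.10. Between MII and L2C, 12 were higher and 17 lower without overlap, where 31.7% and 50.3% of the stable mRNAs were.

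The largest rises of input from MII to L2C were those of *Zfp219*, at a log2 change of 1.82, *Tspyl2* at 0.83 and *Wdr62* at 0.73. *Tspyl2* inputs held 45.0, 46.9 and 42.4 CPM at MII, 30.4, 30.9 and 28.8 CPM at L1C, and 76.4, 82.2 and 80.3 CPM at L2C. *Wdr62* followed the same order, with 39.4, 38.6 and 37.9 CPM, then 18.4, 20.3 and 24.6 CPM, then 59.0, 72.6 and 61.1 CPM. These 2 fell without overlap after MII and rose above the MII level by L2C. The largest falls were those of *Usp19*, at a log2 change of -1.97, *Wbp1l* at -1.94 and *Sh3bp2* at -1.84. *Usp19* inputs held 588, 894 and 844 CPM at L1C and 338, 386 and 339 CPM at L2C, below all MII inputs. *Wbp1l* inputs held 283, 305 and 283 CPM at MII, 124, 170.3 and 180.0 CPM at L1C, and 72.6, 83.0 and 71.1 CPM at L2C. The steadiest was *Pip5k1c*, whose highest stage was 1.10 times its lowest, and the ratio of the highest to the lowest stage had a median of 2.61 over the 35 and 2.25 over the stable mRNAs.

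The rule used no property of the gene sequence, and the 35 mRNAs shared a GC-rich and rather long coding sequence. Features were read from the longest annotated coding transcript of each gene, and 4126 of the stable mRNAs had one. The GC content of the coding sequence had a median of 58.1% for the 35 and 51.2% for the stable mRNAs. It lay above the stable median for 33 of the 35 and above the upper quartile for 26, and none lay below the lower quartile. The highest was *Zfp219* at 64.7%, followed by *Fiz1* at 63.6%, and the lowest were *Wdr11* at 49.4% and *Fkbp5* at 50.4%. The coding sequence had a median length of 2280 bases against 1509, longer than the stable median for 29 of the 35. It reached 6354 bases in *Espl1* and was shortest in *Wbp1l*, at 1155 bases. Over all annotated exons of a gene, GC content had a median of 55.0% for the 35 and 47.8% for the stable mRNAs.

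**Figure D2:**
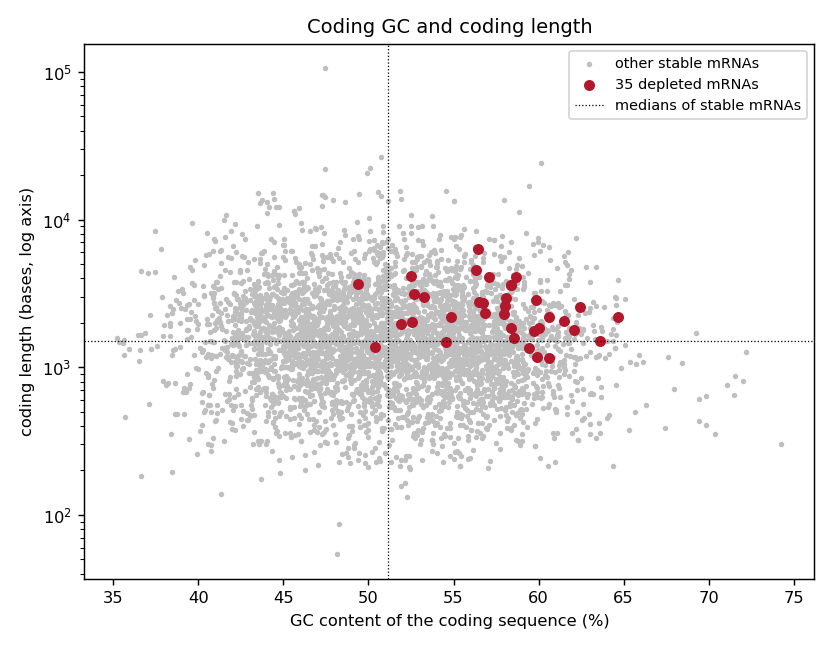
GC content of the coding sequence in percent against coding length in bases (log axis) for the stable mRNAs (grey) and the 35 depleted mRNAs (red), with the medians of the stable mRNAs as dotted lines. Of the 35, 33 lie right of the GC median of 51.2% and 29 above the length median of 1509 bases.

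Of the 213 stable mRNAs above the upper quartile of coding GC and also of coding length, 12 (5.63%) belonged to the 35, and of the 2276 above neither quartile 5 (0.220%) did. Those above the upper quartile of GC alone held 14 of 819, and those of length alone 4 of 818. When the stable mRNAs were split into 10 equal bins of coding GC, the highest 2 bins held 11 and 13 of the 35, and the lowest 3 bins held none. The IP/input ratio of stable mRNAs in general also varied with both properties. At L2C its median log2 went from 0.75 in the lowest bin of coding GC to -0.48 in the highest. At MII it went from 0.39 to -0.22. Across the 4125 stable mRNAs with all values, Spearman's rho of the mean log2 ratio was -0.36 with coding GC and -0.31 with coding length. These correlations are over genes that share the same libraries and are a description. By length the median log2 ratio was lowest in bin 9 at MII and L1C and was higher again in bin 10, where it was 0.19 at L2C. The 10 stable mRNAs with a ratio of at least 3 at every stage had a median coding GC of 43.1%. They were *Cnot6l*, *Atp2a2*, *Suz12*, *Slc9b1*, *Zfp770*, *1110059G10Rik*, *Tab2*, *Magoh*, *Usp1* and *Paip1*.

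**Figure D3:**
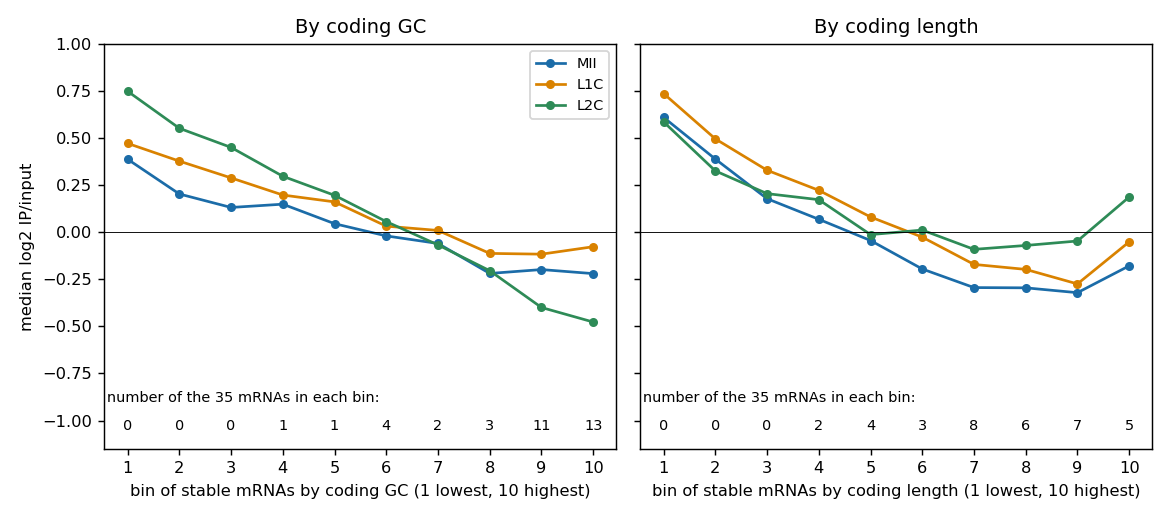
Median log2 IP/input of stable mRNAs in 10 equal bins of coding GC (left) and of coding length (right), with 1 line per stage, and the number of the 35 depleted mRNAs in each bin printed below. At L2C the line falls from 0.75 in the lowest bin of GC to -0.48 in the highest, and the highest 2 bins hold 11 and 13 of the 35.

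Total exon length did not set the 35 apart in 1 direction. The union of all annotated exons was shorter, with a median of 4711 bases against 5202, while the longest coding transcript was longer, with 3898 bases against 3474. The gene spans were shorter, with a median of 15648 bases against 32977, and exons made up a median of 30.5% of the span against 16.1%. For 11 of the 35 the span was longer than the stable median, and the longest was that of *Carmil1* at 268452 bases, of which exons made up 3.34%. The coding transcript had a median of 16 exons against 11, and its longest internal exon a median of 356 bases against 221. The 3′ untranslated region had a median of 829 bases against 1282.

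The 35 mRNAs did not carry fewer GGAC motifs. The median was 20 per transcript against 13 for the stable mRNAs, and 4.90 per kb against 3.88. For 28 of the 35 the number was above the stable median, and it ran from 8 to 33. GGACT, which holds a GGAC, was found 5 times per transcript at the median against 4. Relative to the number given by base composition, GGAC stood at 1.04 in both. Over the stable mRNAs the number of GGAC had a Spearman's rho of -0.35 with the mean log2 ratio, GGAC per kb one of -0.27, and GGAC relative to base composition one of -0.11.

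By position, 9 of the 35 genes lay on chromosome 7, as did 283 of the 4134 stable genes. These 9 were *Ercc2*, *Pak4*, *Ap2a1*, *Fiz1*, *Wdr11*, *Zfp553*, *Wdr62*, *Nup62* and *Zfp180*. The span of 13 of the 35 (37.1%) overlapped that of another protein-coding gene, against 25.6% of the stable mRNAs. Counting any annotated gene, 21 of the 35 (60.0%) overlapped another span, against 59.6% of the stable mRNAs. Among the 13 that overlapped a protein-coding gene were *Ercc2*, which overlaps *Klc3*, *Pak4*, which overlaps *Samd4b*, and *Nup62*, which overlaps *Atf5* and *Il4i1*. Since the SLIM-seq counts are made on whole spans, reads of such genes can be shared and their values are less certain.

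The Ctrl embryos of the KD experiment gave a second look at the same stage, in libraries counted on exons and not on spans. Their level was compared with the L2C input level, as a log2 ratio of CPM. It had a median of -0.31 over the stable mRNAs and of -2.58 over the 35. For 33 of the 35 it lay below the lower quartile of the stable mRNAs, which was -1.56, and for none was it above 0. The extremes were *Ercc2* at -6.94 and *Zfp180* at -0.86. *Ercc2* had a mean of 61.4 CPM in the L2C inputs and 0.501 CPM on exons in Ctrl. *Carmil1* had 413 CPM in the L2C inputs and 25.7 CPM in Ctrl, and *Dtx2* 1629 and 103 CPM. Against the L2C IP the same Ctrl levels were much nearer the rest, with a median of -0.49 for the 35 and -0.34 for the stable mRNAs. By this second ratio 8 of the 35 lay below the lower quartile and 24 below the median. The L2C input level is also the denominator of the ratio that chose the set, and the experiments differ in counting, so neither median is a test. Over stable mRNAs the log2 ratio of Ctrl to L2C input had a Spearman's rho of -0.50 with coding GC (n = 4095), again a description over genes. Per kb of exon, the Ctrl level had a median of 2.86 CPM for the 35 and 5.91 CPM for the stable mRNAs, from 0.120 CPM for *Ercc2* to 44.5 CPM for *Nup62*.

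**Figure D4:**
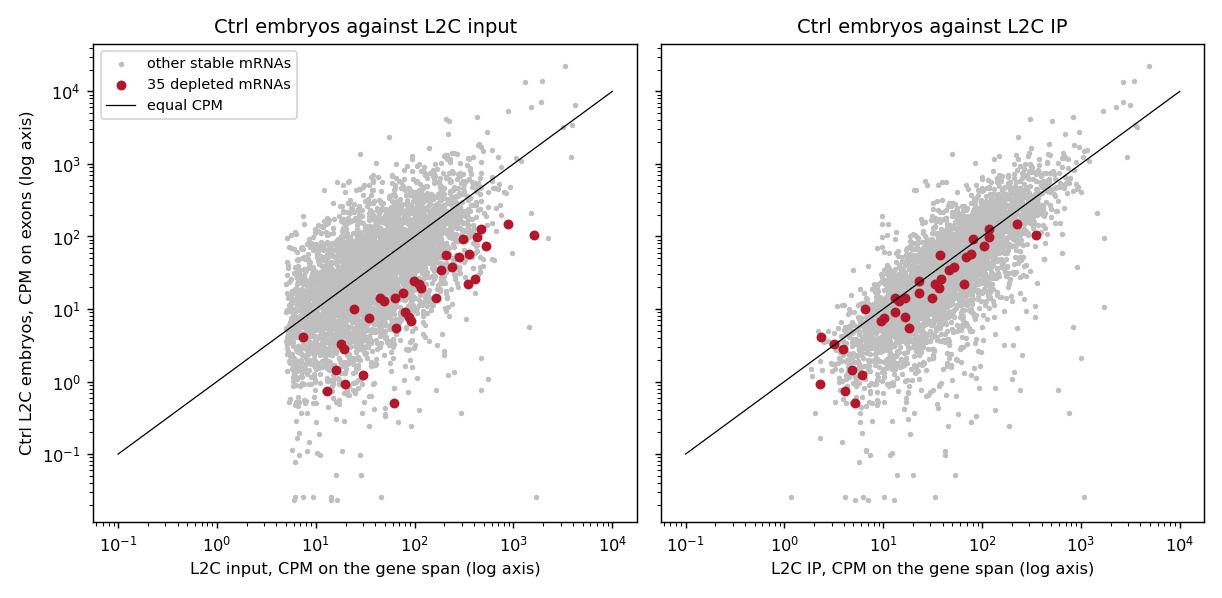
Level in Ctrl L2C embryos (CPM on exons) against the L2C input (left) and the L2C IP (right), both in CPM on gene spans and all on log axes, as means of 3 libraries, for the stable mRNAs (grey) and the 35 depleted mRNAs (red). The black line marks equal CPM, and genes at 0 are left out. All 35 lie below the line on the left, with a median log2 ratio of -2.58, and closer to the rest on the right, with -0.49.

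Knockdown of *Ythdc1* was measured in other libraries than those that chose the set, and here the 35 mRNAs can be tested. *Ythdc1* itself held 498, 521 and 493 CPM in KD and 1114, 1138 and 1048 CPM in Ctrl, 0.499 times the Ctrl level in the fit (SE 0.0622 on the log2 scale). The counts of KD replicate 3 stop part way through the annotation, so 17 of the 35 were compared with 3 libraries against 3 and the other 18 with 2 KD libraries against 3. CPM of the 17 are relative to the counts in the part that all 6 libraries cover, and those of the 18 to the counts of the whole library. The quasi-likelihood test of edgeR was adjusted over all genes tested by Benjamini-Hochberg (BH), and a change was called at an adjusted p under 0.05. Most genes were called: 70.9% of 7433 with 3 against 3 (33.5% of the genes tested higher and 37.4% lower), and 66.8% of 17074 with 2 against 3 (30.5% of the genes tested higher and 36.4% lower). Of the 17, 5 (29.4%) rose and 8 (47.1%) fell, and of the 18, 7 (38.9%) rose and 6 (33.3%) fell. With so few mRNAs these shares are near those of all genes. At an unadjusted p under 0.05 with a log2 change over 1 in size, 4 of the 17 were higher and 2 lower. The share of all genes that met this other rule is not given, so these counts cannot be set against it. The median log2 change was -0.36 for the 17 and 0.03 for the 18, and in the fit of 2 against 3 it was -0.27 over all 35 and -0.09 over all genes. That fit called 12 of the 35 higher and 14 lower, and without KD replicate 2 it called 7 higher. The median over the 35 was -0.16 without Ctrl replicate 2 or without Ctrl replicate 3.

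**Figure D5:**
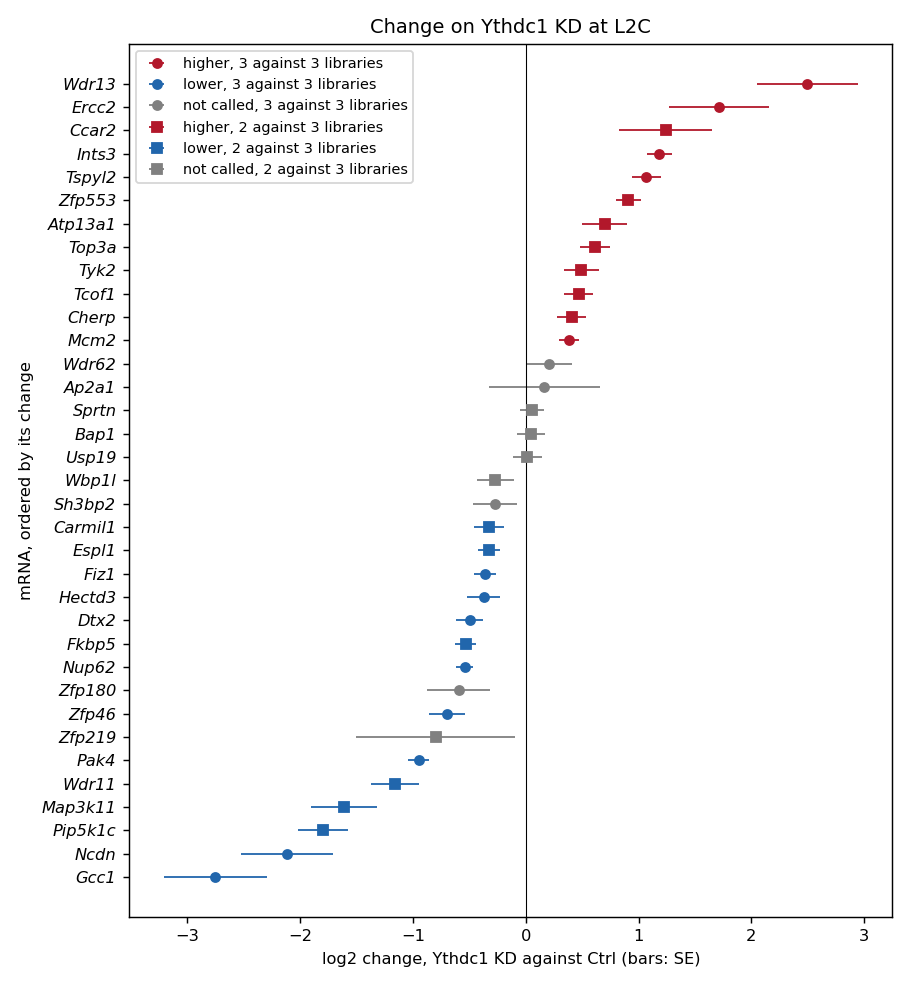
Log2 change of the 35 mRNAs in *Ythdc1* KD against Ctrl with its standard error, from edgeR, ordered by size. Red marks higher, blue lower and grey not called at a BH-adjusted p under 0.05, with circles for 3 against 3 libraries and squares for 2 against 3. The changes run from -2.75 for *Gcc1* to 2.50 for *Wdr13* on both sides of 0.

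Of the 8 signalling and cytoskeleton mRNAs, 6 fell and 1 rose. Over all genes tested, 33.5% rose and 37.4% fell with 3 against 3, and 30.5% rose and 36.4% fell with 2 against 3. The groups of function are small and were not tested, so their counts here and below are a description. *Pak4* held 64.9, 76.2 and 71.0 CPM in KD and 144, 140.4 and 162 CPM in Ctrl, a log2 change of -0.95 (SE 0.0959, adjusted p = 7.8e-08 by edgeR). *Ncdn* held 1.59, 0.805 and 2.76 CPM in KD and 7.50, 7.02 and 11.9 CPM in Ctrl, a log2 change of -2.12 from 3 to 15 counts per KD library. Neither gene overlapped between the groups. *Pip5k1c* held 4.00 and 2.92 CPM in KD and 12.5, 11.5 and 14.7 CPM in Ctrl, a log2 change of -1.80 (SE 0.223, adjusted p = 4.3e-06 by edgeR). *Fkbp5* held 97.2 and 95.7 CPM in KD and 138, 144 and 161 CPM in Ctrl, a log2 change of -0.53. *Map3k11* fell by 1.61 on the log2 scale. *Carmil1*, with the lowest mean IP/input ratio, held 17.6 and 21.4 CPM in KD and 24.2, 24.9 and 28.1 CPM in Ctrl. Its log2 change was -0.32, with an adjusted p of 0.039 by edgeR. The adjusted p of *Carmil1* ran from 0.017 to 0.34 over 9 alternatives, and its call was lost with DESeq2 and without KD replicate 1 or any single Ctrl library. *Tyk2* rose by 0.49 on the log2 scale, a call lost without KD replicate 2 or Ctrl replicate 2. *Sh3bp2* was not called, at a log2 change of -0.27 (SE 0.195).

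Nuclear and transcription mRNAs went both ways, with 6 that rose, 3 that fell and 2 not called among 11. *Ints3* held 111, 104 and 107 CPM in KD and 44.8, 51.2 and 59.8 CPM in Ctrl, a log2 change of 1.18 (SE 0.109, adjusted p = 2.4e-08 by edgeR). *Tspyl2* held 46.0, 46.4 and 45.8 CPM in KD and 24.0, 22.1 and 25.9 CPM in Ctrl, a log2 change of 1.07. For both, every KD library was above every Ctrl library. *Zfp553* held 44.0 and 42.0 CPM in KD and 22.0, 25.2 and 25.4 CPM in Ctrl, a log2 change of 0.91 (SE 0.111). *Tcof1*, *Cherp* and *Ccar2* rose by 0.47, 0.41 and 1.24 on the log2 scale, and these calls are weaker. That of *Tcof1*, the only called mRNA whose groups overlapped, was lost without KD replicate 2. That of *Cherp* was lost without Ctrl replicate 2, and that of *Ccar2* with DESeq2 and without KD replicate 2 or Ctrl replicate 2. *Nup62* held 218, 199.6 and 221 CPM in KD and 322, 344 and 347 CPM in Ctrl, a log2 change of -0.54 (SE 0.0731, adjusted p = 2.7e-06 by edgeR). *Zfp46* and *Fiz1* fell by 0.70 and 0.36 on the log2 scale. *Zfp180* and *Zfp219* were not called, at log2 changes of -0.59 (SE 0.280) and -0.80 (SE 0.705), the latter from 1 to 13 counts per library.

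Of the 6 mRNAs of DNA and chromosomes, 3 rose, 1 fell and 2 were not called. *Mcm2* held 159.9, 153 and 178 CPM in KD and 133, 141 and 137 CPM in Ctrl, a log2 change of 0.38 (SE 0.0863). *Ercc2* held 3.87, 5.64 and 2.94 CPM in KD and 0.915, 1.86 and 1.22 CPM in Ctrl, a log2 change of 1.71 (SE 0.442) from 4 to 21 counts per library. *Top3a* held 29.1 and 34.6 CPM in KD and 19.6, 20.8 and 25.8 CPM in Ctrl, a log2 change of 0.62 (SE 0.132). All KD libraries were above all Ctrl libraries for these 3. *Espl1* fell by 0.33 on the log2 scale, a call lost without KD replicate 1. *Sprtn* was not called, with 38.7 and 36.8 CPM in KD and 38.9, 39.3 and 36.5 CPM in Ctrl, at a log2 change of 0.05 (SE 0.106), nor was *Wdr62*, at 0.21 (SE 0.201).

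Of the 4 ubiquitin system mRNAs, *Dtx2* and *Hectd3* fell. *Dtx2* held 153, 218 and 165 CPM in KD and 233, 259.6 and 332 CPM in Ctrl, a log2 change of -0.50 (SE 0.119). *Hectd3* fell by 0.37, a call lost with DESeq2 and without KD replicate 1 or 2 or Ctrl replicate 1 or 3. *Usp19* and *Bap1* were not called, at log2 changes of 0.01 (SE 0.130) and 0.05 (SE 0.124). Among membrane and trafficking mRNAs *Gcc1* showed the largest fall of the 35, with 0.683, 1.88 and 0.552 CPM in KD and 5.67, 8.47 and 7.93 CPM in Ctrl, a log2 change of -2.75 (SE 0.455) from 3 to 7 counts per KD library. *Wdr11* held 4.44 and 4.06 CPM in KD and 10.1, 9.29 and 10.9 CPM in Ctrl, a log2 change of -1.16 (SE 0.212). *Atp13a1* rose by 0.70, a call lost without KD replicate 2, and *Ap2a1* and *Wbp1l* were not called. The unplaced *Wdr13* showed the largest rise, with 11.2, 7.78 and 9.56 CPM in KD and 0.366, 2.48 and 3.05 CPM in Ctrl, a log2 change of 2.50 (SE 0.446) from 2 to 12 counts per Ctrl library.

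KD and Ctrl libraries did not overlap for 15 of the 17 mRNAs (88.2%) with 3 against 3 and for 13 of the 18 (72.2%) with 2 against 3, where 73.1% and 76.8% of all genes tested did not overlap. Markers of stage and of blood moved with the groups. The 10 oocyte markers summed to between 770.5 and 835 CPM in KD and between 1682 and 1781 CPM in Ctrl, and the 6 markers of the 2-cell stage to between 249 and 279 CPM in KD and between 860 and 890 CPM in Ctrl. Of the 5 blood genes 2 exceeded 1 CPM in either group, and their sum lay between 9.06 and 13.7 CPM in KD and between 21.1 and 29.3 CPM in Ctrl. The 10 cumulus and granulosa markers overlapped, with sums from 7.71 to 9.60 CPM in KD and from 8.55 to 11.7 CPM in Ctrl. The part of these markers in the changes of the 35 mRNAs was not tested.

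The 35 were also looked up in gene lists built from symbol prefixes, which do not cover a whole family. They leave out *Dtx2*, *Hectd3* and *Bap1* of the ubiquitin system, the kinases *Tyk2* and *Pak4*, and *Fiz1* with its zinc fingers. The 35 made up 0.847% of the stable mRNAs, a share at which most of these lists would hold none. The prefixes Zfp, Zkscan and Zscan held 4 of 93 stable mRNAs, which are *Zfp180*, *Zfp219*, *Zfp46* and *Zfp553*. The prefixes Usp, Ube2, Fbxo, Fbxw, Trim and Rnf of ubiquitin ligases and proteases held 1 of 85, *Usp19*, and the prefixes Ppp, Ptp, Map3k, Map4k and Mapk of phosphatases and kinases held 1 of 42, *Map3k11*. None of the 35 was among 56 solute carriers, 48 GTPase regulators, 35 splicing factors, 31 mitochondrial ribosome genes, 28 genes of oxidative phosphorylation, 20 translation factors, 17 proteasome genes, 13 kinesins, 8 cytosolic ribosomal proteins and 5 collagens and cadherins that were stable. Nor were any of the 6 stable mRNAs of m6A writers, erasers and readers, whose median IP/input was 0.678, 0.729 and 0.875 in stage order. Over all genes tested with 3 against 3 in KD, 33.5% rose and 37.4% fell. Of the lists that hold any of the 35, 53 of 158 zinc finger genes rose and 59 fell, 51 of 112 ubiquitin ligases and proteases rose and 38 fell, and 19 of 49 phosphatases and kinases rose and 14 fell. Among lists that hold none of the 35, more genes rose than fell for cytosolic ribosomal proteins (36 and 1 of 40), oxidative phosphorylation (27 and 8 of 44), the mitochondrial ribosome (26 and 3 of 33), splicing factors (25 and 2 of 34), translation factors (19 and 3 of 25) and the proteasome (14 and 1 of 17). The counts were 27 and 40 of 102 for solute carriers, 10 and 24 of 52 for GTPase regulators, 1 and 6 of 12 for collagens and cadherins and 3 and 3 of 12 for kinesins. Of 8 m6A genes 3 rose and 4 fell, *Ythdc1* among the latter.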

How the data were processed

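The 18 SLIM-seq libraries were quantified by the authors with kallisto, and the deposited estimated counts per gene are not scaled to library size. Each target is a whole gene span with its introns on GRCm38. TPM values from these runs, which the authors also deposited, were not used here. For the 6 KD and Ctrl libraries the authors deposited unscaled exon counts made with featureCounts 2.0.1, as the file headers state, and Ensembl annotation 99. The merged table of these counts and KD replicate 3 hold 25739 of 55471 genes.

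The members, gene lists and groups of function were chosen with earlier results of these data known. The labels name a stranded kit and the methods an unstranded Smart-seq2 protocol, so antisense reads may be counted. Genes named are, by rule, the 8 with the lowest ratios, the 8 with the highest input, the 3 with the largest rise and fall of input, up to 5 called in each direction per KD fit, those nearest the limit, and members of gene lists. The remaining members and the enriched mRNAs were named after their values were seen. KD and Ctrl were compared with edgeR 4.0.16 in R 4.3.3, with TMM scaling, its filter on low counts and the quasi-likelihood test, which was tested on simulated data. DESeq2 1.42.0 was an alternative. Standard errors are the log2 change divided by the root of the F statistic. Exons, and the gene spans they bound, were taken from Ensembl annotation 99. Gene types, chromosomes, coding transcripts and overlapping genes were taken from GENCODE M21, in which 241 gene IDs had no entry. Sequences came from the RefSeq GRCm38 genome. Other steps used Python 3.11.15 with pandas 2.3.3, numpy 2.4.6 and matplotlib 3.10.9. Fitted changes of genes with few counts are uncertain, and all errors cover the spread between these libraries.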

Additional observations from a re-analysis of the deposited data

How the results depend on the processing

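The number of mRNAs that meet the rule depended on its limits. It was 35 as reported, 65 with TMM scaling (31 of the 35 among them), 153 with IP/input of at most 1/2, 11 with at most 1/4, and 57 with no limit on change between stages. Leaving out each library in turn gave 30 to 44. With TMM scaling the median log2 IP/input of the 35, in stage order, was -2.67, -2.25 and -2.30 in place of -2.43, -1.95 and -2.01. The median of all stable mRNAs moved alike, by -0.23, -0.30 and -0.30, so that the 35 differed from it by -2.48, -2.09 and -2.16 under both scalings. Without single libraries these medians ran from -2.49 to -2.40, from -2.10 to -1.83 and from -2.16 to -1.94.

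In KD, an unadjusted p under 0.05 with a log2 change over 1 in size left 4 of the 17 higher and 2 lower, and 5 higher and 5 lower over all 35 with 2 against 3. These counts are not set against the share of all genes under that rule. Without single libraries 5 of the 17 were higher and 7 to 9 lower, and of the 35 with 2 against 3, 7 to 12 were higher, the fewest without KD replicate 2, and 11 to 14 lower. The median change of -0.27 ran from -0.36 to -0.16. A lone KD library is assumed to vary like Ctrl. Apart from that rule, 8 of 26 called mRNAs lost the call at an adjusted p under 0.05 in another fit (DESeq2, another scaling, no filter, the block or a library left out). Same-numbered KD and Ctrl libraries correlated at 0.039, -0.034 and -0.038, so the numbers do not pair them, and with the replicate block 5 and 8 of the 17, and 12 and 13 of the 35, were higher and lower, *Carmil1* being the call that was lost. On the longest transcript in place of all exons, exon length was 3898 bases, exon GC 56.2% and exon share of the span 22.0%, in place of 4711, 55.0% and 30.5%. Depth limits the changes of *Zfp219*, *Gcc1*, *Ncdn*, *Ercc2*, *Ap2a1* and *Wdr13*, whose counts per library were low in KD or Ctrl.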
